A study of Homo sapiens with 6 samples.

Results

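The 10 genes described here were the 7 IGF binding protein genes (IGFBP1 to IGFBP7), the receptor genes IGF1R and IGF2R, and IGFL1, which encodes an IGF-like secreted protein. They were chosen by gene symbol, with earlier results of these data known, and each symbol had 1 of the 25737 entries that every library listed. Their mRNA was counted in A549, a long-established lung carcinoma cell line, and in BEAS-2B, a cell line of immortalized epithelium from the bronchus. The labels give both lines as wild type. Cells of each line were left without TGF-β1 or received it at 1 or 5 ng/mL over 48 h, with 1 library for each of the 6 conditions. The treated cells were kept in a medium with reduced serum, and the medium of the untreated cells is not given in the sample labels, so a serum difference cannot be told apart from the treatment. The comparisons with the untreated library ask how TGF-β1, the cytokine used in the study to set up a cell model of lung fibrosis, changes these genes.

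The IGF system consists of the ligands IGF1 and IGF2, their receptors, and secreted binding proteins that hold the ligands outside the cell. A binding protein can withhold a ligand from IGF1R, or can release it locally when a protease cuts the binding protein. In the lung, TGF-β1 and IGF binding proteins have both been studied in fibrosis, where epithelial cells and fibroblasts secrete several members of the family.

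The libraries held between 4120624 and 7841350 counts, the highest total being that of A549 cells at 1 ng/mL. Normalized counts are counts scaled with TMM factors (trimmed mean of M-values) to the mean size of the 6 libraries. Adding 1 to this count and taking log2 gives the ND value. A gene was called when its fold change was at least 2 and its ND value was at least 7, a normalized count of 127, in at least 1 of the 2 libraries compared. With 1 library per condition, no difference could be tested against the spread between cultures, and no p-value is given. The 95% intervals are for counting error alone, and reads that lack molecular identifiers need not stand for separate molecules. A count of 0 allows 3 counts, which was 0.383 to 0.728 counts per 1000000 counts (CPM) in these libraries. In bulk samples, fewer cells of a type and less RNA per cell cannot be told apart.

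Markers of the labelled cells were checked in every library. The epithelial keratins KRT8 and KRT18 were counted in both lines, with 175 counts or more in each library. The epithelial adhesion genes EPCAM and CDH1 had 49 and 640 counts in untreated A549 cells and 2 and 8 counts at 5 ng/mL. BEAS-2B cells had 0 counts of EPCAM and at most 2 of CDH1 in every library, so these defining epithelial markers were at or under the floor of 3 counts in that line. The carcinoma-associated genes AKR1B10, AKR1C1, ALDH1A1 and NQO1 were all called lower in A549 cells at 5 ng/mL. Of the mesenchymal markers, PDGFRB had 118 to 178 counts in BEAS-2B cells and 0 to 13 in A549 cells. VIM had 1975 counts or more in every library of both lines. PDGFRA, DCN and LUM went the other way from PDGFRB, reaching 22, 53 and 15 counts in A549 cells and at most 4 in BEAS-2B cells. The leukocyte and endothelial markers had at most 4 counts in any library. The TGF-β response genes SMAD7, SKIL and PMEPA1 had higher normalized counts in all 4 treated libraries than in the control of their line. The part of these marker shifts in the results below was not tested.

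In A549 cells, all 10 genes reached the ND minimum in at least 1 library. At 5 ng/mL, 6 of them were called, with IGFL1, IGFBP5 and IGFBP2 higher and IGFBP3, IGFBP1 and IGF2R lower. Of the 7115 genes that reached the minimum in this comparison, 33.3% were called, 16.1% as higher and 17.1% as lower. At 1 ng/mL, 5 of the 10 genes were called, beside 23.5% of 7007 genes, and IGFBP2 missed the fold limit. The median log2 fold change of the 10 genes at 5 ng/mL was 0.17, beside 0.11 over all genes at the minimum. Their median size of change, regardless of sign, was 1.64, beside 0.68. Neither median depends on the value set for IGFL1, whose control count was 0. The genes thus moved in opposite directions, with larger shifts than the typical gene in this pair of libraries. Because the genes were chosen with earlier results of these data known, these shares and medians only describe a chosen set. IGFBP5 and IGFL1 reached the minimum in A549 cells only in the treated libraries, where they were high.

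In BEAS-2B cells, 6 of the 10 genes reached the minimum and 2 were called at 5 ng/mL, IGFBP7 as higher and IGFBP6 as lower. The background was 19.0% of 6735 genes, 7.33% as higher and 11.6% as lower. At 1 ng/mL, IGFBP7 and IGFBP6 were again called, beside 14.8% of 6681 genes. The median log2 fold change of the 6 genes was 0.53 at 5 ng/mL, beside 0.03 over all genes at the minimum, and their median size of change was 0.57, beside 0.49. The other 4 genes, IGFBP1, IGFBP2, IGFBP5 and IGFL1, were below the minimum in both libraries of each comparison, and their counts are given with the others below.

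Both doses were compared with the same untreated library of their line, so their values are given side by side. A single member, IGFBP3, was called between 5 and 1 ng/mL among the 9 able to be called in A549 cells, beside 3.40% of 6467 genes. In BEAS-2B cells, 0 of 6 were called, beside 0.904% of 6306 genes. The plot of normalized counts by dose shows that most of the differences were already present at 1 ng/mL.

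**Figure D1:**
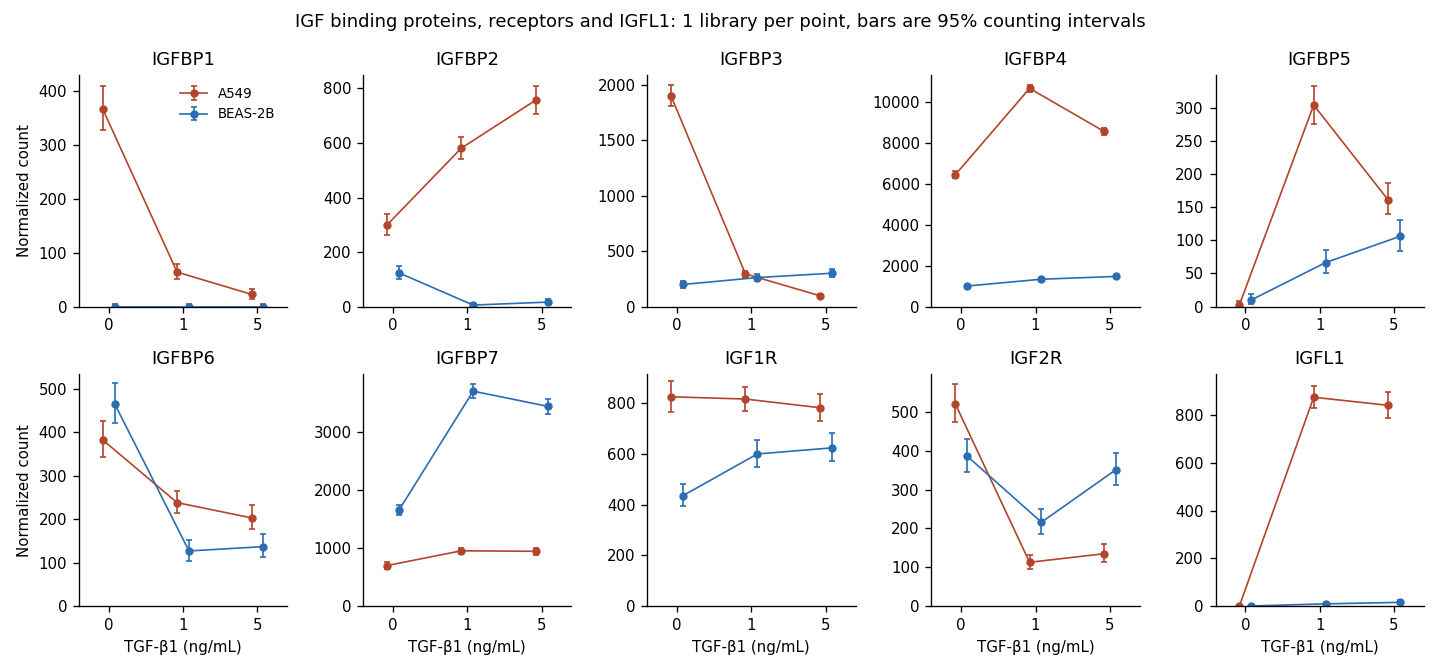
Normalized counts of the 10 genes (vertical axes, each with its own scale from 0) against the TGF-β1 dose in ng/mL (horizontal axes) in A549 (red) and BEAS-2B cells (blue). Each point is 1 library and the bars are 95% Poisson intervals of its count. In A549 cells IGFBP3 ran from 1901 to 295 and 98.0 over the doses, while IGFL1 ran from 0 to 874 and 840.1.

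IGFBP3 and IGFBP1 were the binding protein genes called lower in treated A549 cells. IGFBP3 encodes the main carrier of IGFs in blood. It occupies chromosome 7 from 45912245 to 45921874 on the minus strand (GRCh38). Its counts in A549 cells were 1641 without TGF-β1, 430 at 1 ng/mL and 108 at 5 ng/mL. In BEAS-2B cells they were 179, 233 and 239. The untreated A549 library was the highest of the 6, and the A549 library at 5 ng/mL was the lowest. In A549 cells IGFBP3 was 6.44-fold lower at 1 ng/mL (95% counting interval 5.78 to 7.17) and 19.4-fold lower at 5 ng/mL (16.0 to 23.8). From 1 to 5 ng/mL it was 3.02-fold lower (2.44 to 3.76). In BEAS-2B cells the ratio at 5 ng/mL was 1.51 (1.24 to 1.84), below the fold limit and in the other direction.

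IGFBP1 encodes a binding protein known from liver and decidua, where insulin lowers its transcription. It occupies chromosome 7 from 45888357 to 45893668 on the plus strand, 18.6 kb from IGFBP3. A549 cells had 316, 93 and 25 counts of IGFBP1 at 0, 1 and 5 ng/mL, and BEAS-2B cells had 0 counts in all 3 libraries. The gene was thus not detectable in BEAS-2B cells at this depth, and its highest count was in the untreated A549 library. It was 5.73-fold lower at 1 ng/mL (4.53 to 7.30) and 16.1-fold lower at 5 ng/mL (10.7 to 25.3). Of the neighbouring pair, IGFBP3 was counted in both lines and IGFBP1 was not. No fold change can be given for IGFBP1 in BEAS-2B cells.

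IGFBP2 and IGFBP5 were the binding protein genes called higher in A549 cells. They also lie side by side, on chromosome 2 at 216632828 to 216664436 on the plus strand and at 216672105 to 216695525 on the minus strand, 7.67 kb apart. IGFBP2 encodes a binding protein that many carcinomas secrete. Its counts were 258, 846 and 834 in A549 cells and 111, 5 and 13 in BEAS-2B cells over the 3 doses. All 3 A549 libraries were above all 3 BEAS-2B libraries, and the doses ran in opposite directions. In A549 cells the ratio to the control was 1.94 at 1 ng/mL (1.69 to 2.24) and 2.53 at 5 ng/mL (2.20 to 2.92). In BEAS-2B cells IGFBP2 was 22.0-fold lower at 1 ng/mL (9.15 to 69.1) and 7.56-fold lower at 5 ng/mL (4.24 to 14.6). The untreated BEAS-2B library had an ND value of 6.96, just under the minimum, and for this reason alone IGFBP2 was not called there; with total counts it was called at both doses.

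IGFBP5 encodes a binding protein that attaches to extracellular matrix. A549 cells had 2, 442 and 178 counts of IGFBP5 over the doses, and BEAS-2B cells had 9, 59 and 84. It had fewer than 10 counts in both untreated libraries and more in all 4 treated libraries. The ratio in A549 cells was 131 at 1 ng/mL (36.1 to 1086) and 69.7 at 5 ng/mL (19.0 to 579.9), and the width of these intervals comes from the 2 counts of the control. In BEAS-2B cells the ratio was 6.61 at 1 ng/mL (3.26 to 15.2) and 10.5 at 5 ng/mL (5.30 to 23.8). The BEAS-2B libraries stayed under the ND minimum, at most 6.74. The level in A549 cells at 5 ng/mL was 1.88-fold lower than at 1 ng/mL (1.58 to 2.25).

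The remaining 3 binding protein genes were counted in every library. IGFBP4 encodes an inhibitor of IGF action that the protease PAPPA cuts, and it occupies chromosome 17 from 40443461 to 40457731 on the plus strand. It had the most counts of the 10 genes in every A549 library, with 5558, 15532 and 9447 over the doses. In BEAS-2B cells it had 903, 1190 and 1171 counts. Its ratio to the control was 1.33 (1.29 to 1.38) in A549 and 1.46 (1.34 to 1.60) in BEAS-2B cells at 5 ng/mL. Both intervals lay above 1 and below the fold limit.

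IGFBP6 encodes a binding protein with a preference for IGF2, and it occupies chromosome 12 from 53097436 to 53102345 on the plus strand. BEAS-2B cells had 417, 113 and 109 counts of it, so both treated libraries were far below the control. It was 3.66-fold lower at 1 ng/mL (2.96 to 4.54) and 3.39-fold lower at 5 ng/mL (2.74 to 4.22). In A549 cells the counts were 330, 347 and 224, which the larger treated libraries turned into 382, 238 and 203 normalized counts. There IGFBP6 was 1.88-fold lower at 5 ng/mL (1.58 to 2.24), short of the fold limit, which it passed with total counts (log2 fold change -1.11).

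IGFBP7 encodes a secreted relative of the family that binds IGFs weakly. It occupies chromosome 4 from 57030773 to 57110385 on the minus strand. Its counts were 1480, 3294 and 2736 in BEAS-2B cells and 605, 1392 and 1044 in A549 cells. It had the most counts of the 10 genes in every BEAS-2B library. The ratio to the control was 2.25 at 1 ng/mL (2.11 to 2.39) and 2.09 at 5 ng/mL (1.96 to 2.23) in BEAS-2B cells. With total counts in place of TMM, the log2 fold change in BEAS-2B cells at 5 ng/mL was 0.93, under the fold limit, and the call was lost. In A549 cells the ratio was 1.36 and 1.35. The last 396 bases of IGFBP7 overlap the 3′ end of POLR2B on the other strand, and the strand setting of the counting is not given in the sources used here. POLR2B had 1165, 1596 and 1027 counts in BEAS-2B cells and 715, 948 and 496 in A549 cells, which is 1299, 1796 and 1294 normalized counts in BEAS-2B and 828, 651 and 450.0 in A549 cells. In BEAS-2B cells POLR2B was thus above its control at 1 ng/mL, as IGFBP7 was, and close to it at 5 ng/mL. The part of shared reads was not tested.

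**Figure D2:**
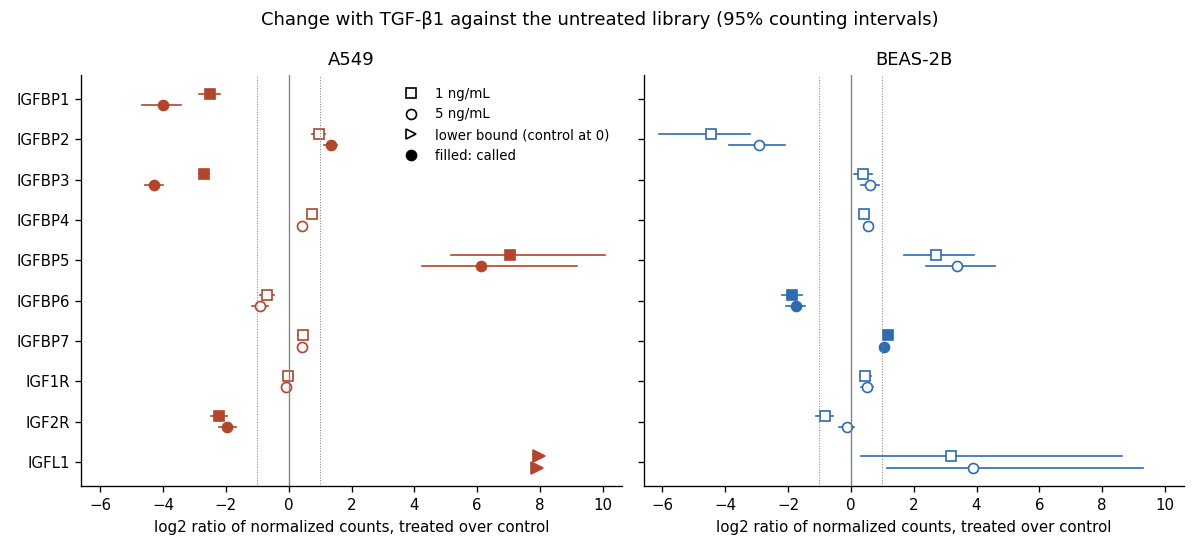
Log2 ratio of normalized counts, treated over untreated (horizontal axis), for the 10 genes in A549 (left) and BEAS-2B cells (right), with 95% counting intervals. Squares are 1 ng/mL, circles 5 ng/mL, filled symbols are called genes, triangles are lower bounds where the control had 0 counts, dotted lines mark the fold limit, and IGFBP1 has no point in BEAS-2B cells because all its counts were 0. IGFBP2 and IGFBP3 lie on opposite sides of 0 in the 2 cell lines.

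The make-up of the binding protein family shifted in both lines, and its sum was higher in treated BEAS-2B cells. A549 cells had 10091, 13110.2 and 10760.2 normalized counts of the 7 genes together over the doses. The sum at 1 ng/mL was 1.30 times that of the control (1.27 to 1.33), and its share of all counts was higher too, at 0.243% after 0.210%. At 5 ng/mL the sum was 1.07 times that of the control (1.04 to 1.10). As a share of all counts it was lower there, at 0.194%, so its direction at 5 ng/mL depends on the scaling. In BEAS-2B cells the sum went from 3457 to 5507 and 5482 normalized counts, a ratio of 1.59 at 5 ng/mL (1.51 to 1.66). As a share of all counts it was higher there too, going from 0.0729% to 0.106% at both doses. The 3′-end kit gives reads from the end of each mRNA, so counts were compared between genes without division by length.

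Within the family, IGFBP4 took 63.8% of the counts in untreated A549 cells (exact Clopper-Pearson interval 62.8 to 64.8%), 81.4% at 1 ng/mL and 79.7% at 5 ng/mL. IGFBP3 was the second largest in untreated A549 cells with 18.8% and held 0.911% at 5 ng/mL. IGFBP7 and IGFBP2 were then the next largest after IGFBP4, with 8.80% and 7.03%. In BEAS-2B cells IGFBP7 took 47.8% without treatment, 67.3% at 1 ng/mL and 62.9% at 5 ng/mL. IGFBP6 went from 13.5% to 2.31% and 2.50%. IGFBP1 had 0 of 3099 family counts in the untreated BEAS-2B library, and the exact interval of its share reached 0.119%.

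**Figure D3:**
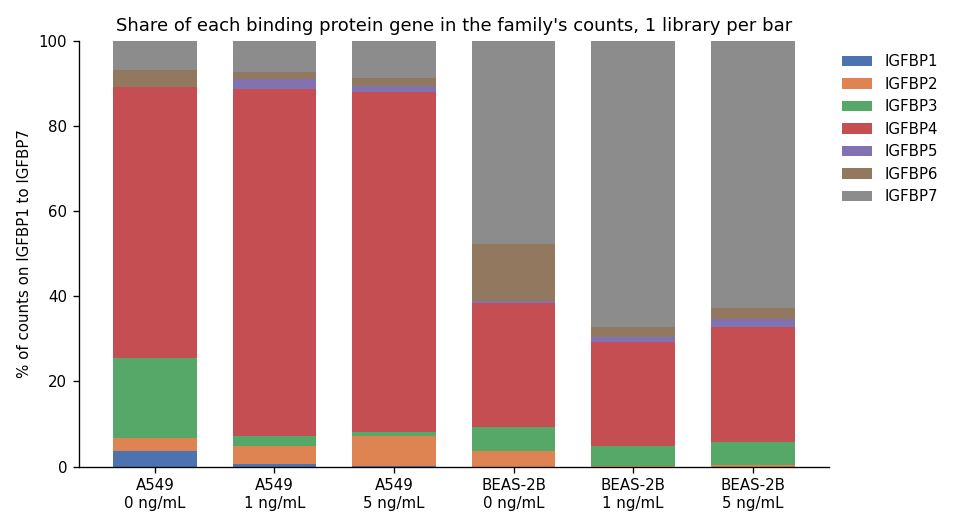
Share of each of the 7 binding protein genes in the family's counts (vertical axis, percent) in each of the 6 libraries (horizontal axis), with 1 library per bar. IGFBP4 fills 63.8 to 81.4% of the A549 bars, and IGFBP7 fills 47.8 to 67.3% of the BEAS-2B bars.

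The receptor genes behaved differently from each other in A549 cells. IGF1R encodes the tyrosine kinase that signals for IGF1 and IGF2, and it occupies chromosome 15 from 98648539 to 98964530 on the plus strand. It had 711, 1186 and 861 counts in A549 cells and 390, 532 and 495 in BEAS-2B cells. After scaling, the A549 libraries lay between 781 and 824 normalized counts with overlapping intervals. The ratio at 5 ng/mL was 0.948 (0.858 to 1.05) in A549 and 1.43 (1.25 to 1.64) in BEAS-2B cells, and the gene was called in neither.

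IGF2R encodes the receptor that takes up IGF2 for breakdown and also carries mannose 6-phosphate-tagged proteins, the latent form of TGF-β1 among them. It occupies chromosome 6 from 159969099 to 160113507 on the plus strand. A549 cells had 450, 164 and 149 counts of it and BEAS-2B cells had 346, 192 and 279. Both treated A549 libraries were below every other library after scaling, at 113 and 135 normalized counts. In A549 cells IGF2R was 4.63-fold lower at 1 ng/mL (3.86 to 5.57) and 3.86-fold lower at 5 ng/mL (3.20 to 4.67). In BEAS-2B cells it was 1.79-fold lower at 1 ng/mL (1.49 to 2.14), and at 5 ng/mL the ratio was 0.911 (0.775 to 1.07). The antisense gene AIRN, which overlaps IGF2R, had at most 2 counts in any library.

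IGFL1 had the widest span of the 10 genes in A549 cells. It encodes a small secreted protein that binds the receptor IGFLR1, and it occupies chromosome 19 from 46229752 to 46231243 on the plus strand. A549 cells had 0 counts without TGF-β1, 1272 at 1 ng/mL and 926 at 5 ng/mL. BEAS-2B cells had 1, 9 and 13 counts. The untreated A549 library was thus at 0, and both treated A549 libraries held more counts of IGFL1 than of IGF1R. Set against the 3 counts that a count of 0 in that library allows, IGFL1 was 251-fold higher at 1 ng/mL and 242-fold higher at 5 ng/mL. The exact counting intervals begin lower, at 204 and 196. In BEAS-2B cells the ratio at 5 ng/mL was 14.7 (2.20 to 624), from 13 counts and 1 count.

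The related genes IGFL2 and IGFL3 lie on the same stretch of chromosome 19, IGFL2 at 68.5 kb from IGFL1 and IGFL3 at 18.4 kb from IGFL2. IGFL3 had 2, 398 and 360 counts in A549 cells and at most 3 in BEAS-2B cells. The counts of IGFL2 were 7, 310 and 171 in A549 cells, and all 3 BEAS-2B libraries had 0. As with IGFL1, the lowest A549 count of both genes was that of the untreated library. The ratio at 5 ng/mL was 141 for IGFL3 (38.7 to 1168) and 19.1 for IGFL2 (9.09 to 48.3). The last 500 bases of the annotated transcripts of IGFL1, IGFL2 and IGFL3 shared 0 stretches of 50 bases with annotated transcripts of another gene. The noncoding gene AC007785.1 spans IGFL2 on the same strand and IGFL3 on the other, and AC006262.3 overlaps IGFL1 on the other strand. Neither has an entry under this symbol, and the part of their reads was not tested. IGFL4 had 0 counts in all 6 libraries. The receptor gene IGFLR1 had 22, 69 and 64 counts in A549 cells and 23, 4 and 21 in BEAS-2B cells, under the ND minimum in each.

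The 30 reference bases before the annotated starts of these 3 neighbours are shown because the genes moved together in A549 cells, and that of IGF1R because it was not called in that line. The sequences are from RefSeq (GRCh38.p14), are written 5′ to 3′ on the gene's strand, and carry each CG pair in capitals.
IGFL1: ggataaaaggagtggctgagatctgctgat
IGFL2: tacataagtccctgtataaagtcactgacc
IGFL3: ttaggctgtctccataagttccagcctttt
IGF1R: gccagggCGCGCGCGCGCGCGCGagccccc
They lie at chr19:46229712-46229741 (plus strand), chr19:46148208-46148237 (plus strand), chr19:46124689-46124718 (minus strand) and chr15:98648509-98648538 (plus strand). In windows of 300 bases, 250 before the start and 50 after, IGFL1 had 4 CG pairs, IGFL2 had 2, IGFL3 had 3 and IGF1R had 55. The median of all 35116 RefSeq promoters was 14.0. The IGFL windows thus held few CG pairs and that of IGF1R held more of them than 99.6% of promoters.

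Of the 10 genes, 8 had entries in the promoter table, and IGFBP1 and IGFBP7 did not. The bases before the start of IGFBP3, called lower in A549 cells, and of IGFBP5, called higher, are set side by side because the change of these binding protein genes was the widest in each direction.
IGFBP3: tatatagCGgcCGgCGCGccCGggcCGccc
IGFBP5: atttaaaagCGcctgctctccCGgagcccc
They lie at chr7:45921273-45921302 and chr2:216695550-216695579, both on the minus strand. IGFBP3 had 36 CG pairs in its window and IGFBP5 had 9, while IGF2R, also called lower in A549 cells, had 41. IGFBP2, also called higher, has 3 annotated windows with 8, 28 and 6 CG pairs. IGFBP4 and IGFBP6, not called in A549 cells, had 30 and 12. Whether CG pairs go with the response was not tested. The letters TATAAA, or TTTATA on the other strand, were searched in the same windows and were found in those of IGFBP4 and IGFL2, in none of the other windows of these genes, and in 11.5% of all promoters. These matches describe the reference sequence and no binding was measured.

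Among the ligands, IGF2 was counted and the others were close to 0. IGF2 encodes the ligand that IGF2R clears. It had 47, 646 and 395 counts in A549 cells and 50, 104 and 72 in BEAS-2B cells. The treated A549 libraries were above the other 4. The ratio in A549 cells was 8.15 at 1 ng/mL (6.06 to 11.2) and 6.58 at 5 ng/mL (4.86 to 9.11), called at both doses. In BEAS-2B cells it was 2.10 and 1.63, the latter with an interval of 1.12 to 2.38, under the ND minimum. The entry INS-IGF2, a readthrough gene over the same locus, had the same counts as IGF2 in 5 of the 6 libraries, so the same reads were counted for both. IGF1 had at most 6 counts in any library and INS, which encodes insulin, had 0 in all.

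Of 45 further genes of the IGF pathway in 7 lists, 26 reached the ND minimum in A549 cells at 5 ng/mL, and 15 of these were called, 10 as higher and 5 as lower. In BEAS-2B cells 22 reached it and 6 were called, 2 as higher and 4 as lower. At 1 ng/mL the numbers called were 12 of 25 and 6 of 21. These counts stand beside the background shares given above for the same comparisons, and the lists too were chosen with earlier results known.

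Among receptors and adaptors, 4 of the 6 genes at the minimum were called in A549 cells at 5 ng/mL, 1 as higher and 3 as lower. INSR, the insulin receptor, had 196, 116 and 47 counts in A549 cells and 235, 115 and 92 in BEAS-2B cells. It was lower at every dose in both lines, by 5.33-fold (3.86 to 7.49) in A549 and 2.26-fold (1.77 to 2.91) in BEAS-2B cells at 5 ng/mL. IRS2, which carries the signal of both receptors inward, had 1452, 414 and 322 counts in A549 cells and was 5.76-fold lower at 5 ng/mL (5.10 to 6.52). In BEAS-2B cells IRS2 was 1.80-fold lower (1.55 to 2.10), and it was not called.

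In the PI3K, AKT and FOXO list, 4 of 8 genes were called in A549 cells, 3 as higher and 1 as lower, and 1 of 7 in BEAS-2B cells as lower. AKT1, a kinase downstream of IGF1R, had 291, 71 and 32 counts in A549 cells and 207, 37 and 36 in BEAS-2B cells. It was 11.6-fold lower (8.05 to 17.3) and 5.09-fold lower (3.56 to 7.47) at 5 ng/mL in the respective lines. FOXO1, a transcription factor that AKT holds out of the nucleus, had 75, 274 and 613 counts in A549 cells and 88, 91 and 93 in BEAS-2B cells. Its ratio at 5 ng/mL was 6.40 (5.03 to 8.25) in A549 and 1.19 (0.882 to 1.62) in BEAS-2B cells.

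Among the binding protein proteases, their inhibitors and partners, 2 of 4 genes were called in A549 cells and 1 of 6 in BEAS-2B cells, all as higher. HTRA1, a secreted protease known to cut IGFBP5, had 237, 983 and 973 counts in A549 cells, a ratio of 3.21 at 5 ng/mL (2.79 to 3.72). STC1, an inhibitor of PAPPA, had 240, 895 and 1044 counts there, a ratio of 3.41 (2.96 to 3.94). ADAM12, a protease that cuts IGFBP3 and IGFBP5, was called in BEAS-2B cells with 601, 1800 and 1785 counts and a ratio of 3.35 (3.06 to 3.68). PAPPA itself was called in neither line, with 5007, 8851 and 4351 counts in A549 and 272, 240 and 310 in BEAS-2B cells. Its antisense partner PAPPA-AS1 had 2535, 4558 and 2158 counts in A549 cells, and without the strand setting the reads of the pair cannot be told apart.

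Of the proteins that share a domain with the binding proteins, 2 of 2 at the minimum were called in each line. CTGF was higher, with 72, 522 and 873 counts in A549 cells and 459, 1229 and 1128 in BEAS-2B cells, a ratio of 9.49 (7.46 to 12.2) and 2.78 (2.49 to 3.10) at 5 ng/mL. CYR61 was lower, with 120, 71 and 18 counts in A549 cells and 1629, 163 and 85 in BEAS-2B cells. It was 8.51-fold lower (5.16 to 14.9) and 17.0-fold lower (13.6 to 21.4) at 5 ng/mL. These relatives, both secreted matrix-associated proteins, thus went apart in both lines. Of the 3 IGF2 mRNA-binding protein genes, 0 were called in either line at either dose.

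**Figure D4:**
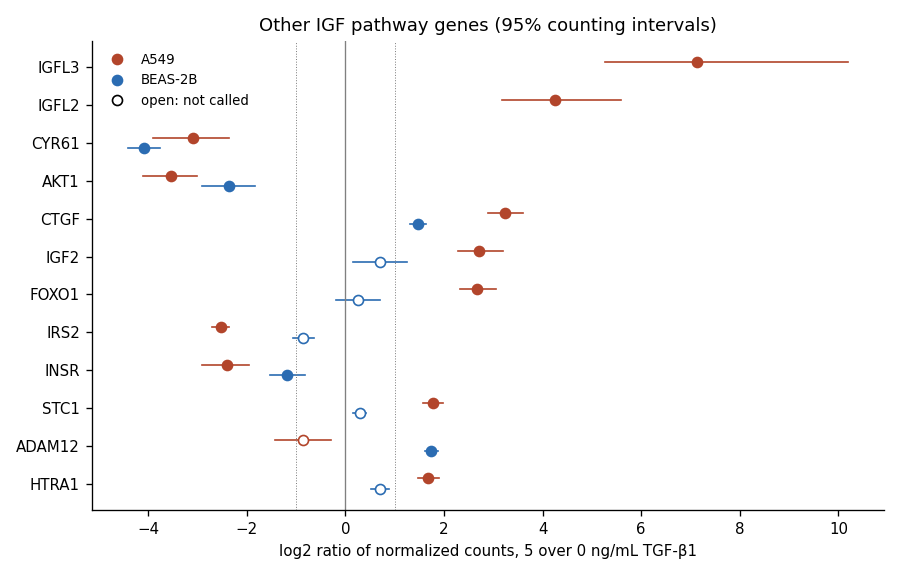
Log2 ratio of normalized counts at 5 over 0 ng/mL TGF-β1 (horizontal axis) for 12 other IGF pathway genes in A549 (red) and BEAS-2B cells (blue), with 95% counting intervals; open symbols were not called. AKT1, INSR and CYR61 lie left of 0 and CTGF lies right of 0 in both lines. IGFL2 and IGFL3 have no BEAS-2B point because their counts at 5 and 0 ng/mL were too few, 0 and 0 for IGFL2 and 2 and 0 for IGFL3.

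Before treatment the lines already differed in these genes. Of the 8 members at the minimum, 5 were called between untreated A549 and untreated BEAS-2B cells, beside 37.0% of 7329 genes. IGFBP1, IGFBP2, IGFBP3 and IGFBP4 were higher in A549 cells and IGFBP7 was lower. IGFBP3 was 9.52-fold higher (8.16 to 11.2), IGFBP4 6.39-fold higher (5.96 to 6.87) and IGFBP2 2.41-fold higher (1.93 to 3.04). IGFBP1 was 109-fold higher when set against the 3 counts that its count of 0 in the BEAS-2B library allows, and the exact counting interval begins at 88.5. IGFBP7 was 2.36-fold lower (2.14 to 2.59). IGF1R, with a ratio of 1.89 (1.67 to 2.15), IGF2R and IGFBP6 were within the fold limit. The 7 binding proteins together were 2.92-fold higher in A549 cells (2.80 to 3.04).

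The responses of the lines were set against each other as the log2 fold change in A549 cells minus that in BEAS-2B cells, with an interval for counting error that is taken without the pseudocount. At 5 ng/mL the difference was 4.18 for IGFBP2 (3.41 to 5.11) and -4.85 for IGFBP3 (-5.27 to -4.47). For IGF2R it was -1.80 (-2.16 to -1.46) and for IGFBP6 0.84 (0.46 to 1.24). IGFBP7 had -0.63 (-0.80 to -0.46) and IGF1R -0.59 (-0.84 to -0.36). IGFBP4 differed least, with -0.14 (-0.27 to 0.00). IGFBP1, IGFBP5 and IGFL1 had fewer than 5 counts in at least 1 of the 4 libraries and were given no interval. Whether any of these differences exceeds the spread between cultures was not tested, since each line and dose had 1 library.

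The order of levels by library can be read for each gene from these values. For IGF1R, the A549 libraries at 0, 1 and 5 ng/mL had 824, 815 and 781 normalized counts and their intervals overlapped. The BEAS-2B libraries at 5 and 1 ng/mL followed with 623 and 599, also overlapping, and the untreated BEAS-2B library was lowest at 435. For IGFBP7, the BEAS-2B libraries at 1 and 5 ng/mL led with 3707 and 3446, the untreated BEAS-2B library had 1651, and the A549 libraries ranged from 701 to 956. The treated A549 libraries, at 956 and 947, did not differ beyond their intervals.

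The genes whose ND values were most like those of IGFL1 over the 6 libraries, among 8159 genes at the minimum in at least 1 library, were COL22A1, LTBP3 and EIF3F. Their Pearson r was 0.9977, 0.994 and 0.9923. COL22A1, a collagen gene, had 0, 491 and 609 counts in A549 cells and 1, 8 and 10 in BEAS-2B cells. For IGFBP5, which had the largest log2 fold change (3.27, with the pseudocount) of the 10 genes in BEAS-2B cells at 5 ng/mL, they were GPS1, ITGA3 and CDK16, with r of 0.995, 0.9934 and 0.9929. These values describe 6 libraries that come from only 2 cell lines and differ in depth. Pearson r does not measure the size of a change. LTBP3 had 442, 4558 and 3331 counts in A549 cells and EIF3F had 619, 1934 and 1459, while IGFL1 started from 0.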

How the data were processed

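The study prepared its libraries with the QuantSeq kit, which reads mRNA from the 3′ end, and analysed them with the ExDEGA software of E-Biogen. The submitters' processing notes name Bowtie2, bedtools and the build hg19, and the counter's strand setting is not given in the sources used here. The authors deposited raw read counts per gene symbol, without normalization, for 25737 entries with 24462 symbols in each of the 6 libraries. Groups were taken from the sample labels, with 1 library each.

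TMM factors were computed over the 6 libraries (edgeR 4.0.16, R 4.3.3). Fold changes of normalized counts used a pseudocount of 1, and calls used the numbers the study names, a fold change of at least 2 and an ND value of at least 7. The paper does not state how its normalized data were scaled, so the ND scale used here can differ from the study's. The paper reports fewer such genes in each line than the 2366 in A549 and 1277 in BEAS-2B cells called here at 5 ng/mL. Ratios carry exact Clopper-Pearson intervals and levels Poisson intervals at 95%, both for counting error only. The difference between lines carries an interval from the summed counting variances on the log scale, for genes with at least 5 counts in all 4 libraries. Intervals came from scipy 1.17.1, tables from pandas 2.3.3 and numpy 2.4.6, and plots from matplotlib 3.10.9, all under Python 3.11.15. Calls and intervals were tested on simulated Poisson counts, which hold no spread between cultures and so cannot show how they fare with it.

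The members and the pathway and marker lists were chosen with earlier results of these data known. All 10 members were named, with the ligands and the 12 pathway genes of largest log2 fold change among those called at 5 ng/mL in either line. Positions came from GENCODE (GRCh38) and describe the genes, not the intervals counted on hg19. Promoter sequences came from RefSeq (GRCh38.p14). Protein sequences were not used here. The alternatives were DESeq2 1.42.0 size factors, total counts, upper quartile factors, a filter of at least 10 counts in 1 library, a pseudocount of 5, libraries thinned to the smallest total, no ND minimum, ND as log2(CPM + 1), and a fold limit of 3.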

Additional observations from a re-analysis of the deposited data

Results flagged for a closer look

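IGFBP2 had higher normalized counts than the control in both treated A549 libraries and lower ones in both treated BEAS-2B libraries. Its log2 fold change at 5 ng/mL was 4.18 higher in A549 than in BEAS-2B cells, and this difference was not tested across replicates. The BEAS-2B values rest on 5 and 13 counts in the treated libraries and 111 in the control.

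IGFBP3 showed the opposite arrangement, with lower normalized counts in both treated A549 libraries and higher ones in both treated BEAS-2B libraries. The difference of the log2 fold changes at 5 ng/mL, A549 minus BEAS-2B, was -4.85 and was not tested across replicates either. In BEAS-2B cells the fold change stayed below 2 at both doses.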

How the results depend on the processing

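All 21 called member changes kept their sign under the 6 alternatives of scaling, filter, pseudocount and depth, in 126 of 126 values. Among these 6 alternatives, calls changed under total counts only: 1 was lost, that of IGFBP7 in BEAS-2B cells at 5 ng/mL (log2 fold change 0.93), and 3 were gained, those of IGFBP6 in A549 cells at 5 ng/mL (-1.11) and of IGFBP2 in BEAS-2B cells at 5 and 1 ng/mL (-2.97 and -4.36). Of 63 recomputed counts of called members, 49 stayed within 1.5 times the value reported. With ND as log2(CPM + 1), the count of called members was 3 in A549 cells at 5 ng/mL (IGFL1, IGFBP2 and IGFBP3), 2 at 1 ng/mL, 0 between 5 and 1 ng/mL, 1 in BEAS-2B cells at 5 and also 1 at 1 ng/mL (IGFBP7), and 3 between the untreated lines. Without an ND minimum it was 2 in A549 cells between 5 and 1 ng/mL, 5 in BEAS-2B cells at each dose against its control, where IGFBP2, IGFBP5 and IGFL1 joined, and 1 between 5 and 1 ng/mL. With a fold limit of 3 it was 0 in A549 cells between 5 and 1 ng/mL, 1 in BEAS-2B cells at each dose against its control (IGFBP6), and 3 between the untreated lines. Each of these settings changes the limit itself.

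Total counts moved the median log2 fold change of all genes by -0.20 at 5 ng/mL and -0.17 at 1 ng/mL in A549 cells and by -0.13 at both doses in BEAS-2B cells. Higher calls then made up 33.8% and 32.2% of all calls in A549 cells, after 48.4% and 46.5% with TMM, and 26.9% and 27.3% in BEAS-2B cells, after 38.7% and 38.3%. No paired analysis was possible because each condition had 1 library, and no replicate could be left out for the same reason. Depth limits IGFBP1, IGFBP2, IGFBP5 and IGFL1 in BEAS-2B cells, each with a library of 13 counts or fewer.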
